A study of Mus musculus with 12 samples.

Results

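Copy number was examined at 10 genes of stemness and reprogramming in a pair of murine pancreatic ductal adenocarcinoma (PDAC) lines: Sox2, Pou5f1, Klf4, Nanog, Cd44, Prom1, Cd24a, Aldh1a1, Lgr5 and Dclk1. The genes were chosen by name from what is known of their function, with earlier results of these data known. All 10 of them were found among 20947 autosomal genes that lie in a single copy-number segment in each line, and they are spread over 8 chromosomes. WES-15376T and WES-14837T are the whole-exome sequencing (WES) libraries of genomic DNA from the primary lines, called 15376T and 14837T below. Each line has 1 library, so none of the values below has a replicate and no test between the lines was possible. By the methods, the lines come from C57BL/6 mice with the reverse transactivator rtTA at the ROSA26 locus, Cre under the p48 promoter, which is active in the pancreas, and 1 floxed allele of Trp53. They were grown in DMEM with fetal bovine serum, antibiotics and doxycycline. The labels give the genotype of both as WT, as opposed to the LIN28B knockout of 15376T, whose RNA is not analysed here. DNA was measured, so the labelled cell type was not checked against the expression of markers, and copy number says nothing of whether a gene is transcribed. DNA of tail tissue from a WT mouse was not analysed here.

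Sox2, Pou5f1 (Oct4) and Klf4 are transcription factors which, together with Myc, return differentiated cells to pluripotency, and Nanog is a homeobox factor that keeps embryonic stem cells pluripotent. Cd44, Prom1 (CD133) and Cd24a encode surface proteins, and Aldh1a1 a retinaldehyde dehydrogenase, that are used to isolate tumor cells with stem-like properties, in PDAC among other cancers. Lgr5 is a receptor for R-spondins that marks Wnt-driven epithelial stem cells, and Dclk1 is a microtubule-associated kinase of tuft cells that has been used to mark progenitor-like cells in the pancreas.

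Of the 10 genes, 3 were called gained in 15376T (Sox2, Nanog and Dclk1), 1 lost (Klf4) and 6 at 2 copies. In 14837T, 4 were called gained (Sox2, Pou5f1, Aldh1a1 and Dclk1), 1 lost (Lgr5) and 5 at 2 copies. A segment is a stretch of consecutive genomic bins given 1 coverage level. Its log2 compares that level, as a log2 ratio, with a reference profile, and which DNA served as reference is not given in the sources used here. The thresholds that the authors used are not given in the sources used here. All of their calls could be derived from the log2 with a loss at -0.25 or less, a gain above 0.2 and 4 copies above 0.7. By these calls, 9.09% of all 20947 genes were gained and 30.1% lost in 15376T (60.9% at 2 copies), and 21.4% were gained and 28.8% lost in 14837T (49.7% at 2 copies). Only Sox2 and Dclk1 were called gained in both lines, as were 6.87% of all genes. Cd44, Prom1 and Cd24a were called at 2 copies in both (41.4% of all genes), and 0 of the 10 were lost in both, as were 22.4% of all genes. The other 5, Pou5f1, Klf4, Nanog, Aldh1a1 and Lgr5, had a different call in the lines, compared with 29.3% of all genes. Counted by integer copy number, Sox2 (4 against 3) made it 6 of 10, and 29.7% of all genes. The calls of these genes depend on the thresholds. From an absolute log2 of 0.3, where 8.45% of all genes were gained and 29.1% lost in 15376T and 17.3% gained and 28.4% lost in 14837T, only Dclk1 lost its calls. From 0.5, where the shares were 2.48% and 27.9% in 15376T and 4.3% and 3.05% in 14837T, Sox2 and Klf4 were still called in 15376T, and 0 of the 10 genes in 14837T.

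**Figure D1:**
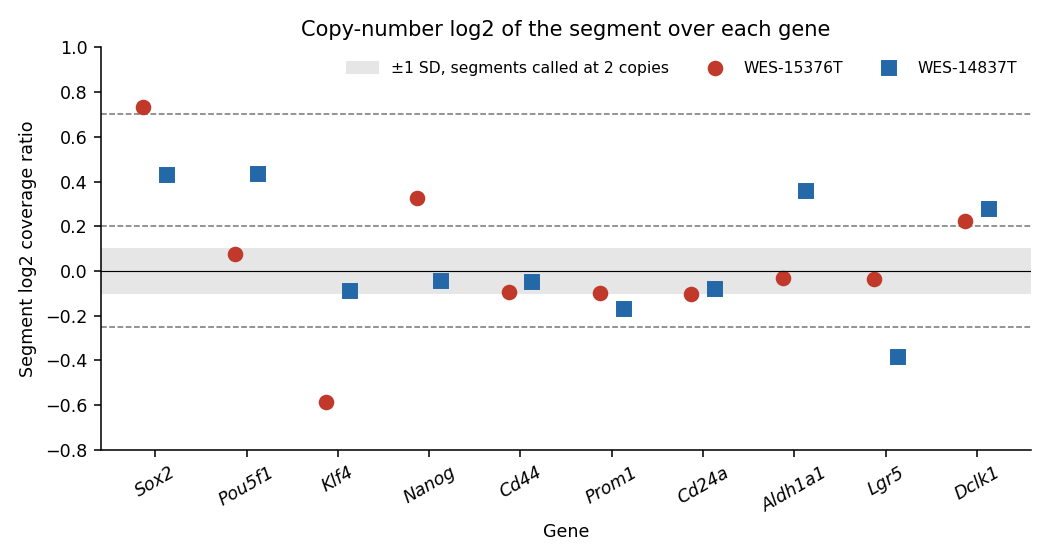
Segment log2 (vertical axis, log2 ratio of coverage) over each of the 10 genes, with 15376T as circles and 14837T as squares. Dashed lines are the thresholds at -0.25, 0.2 and 0.7, and the gray band is 1 SD (0.098, the larger of the SDs of the lines) around 0. Sox2 is highest and Klf4 lowest, both in 15376T.

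No replicates give a spread for the segment log2, so that among segments was used. The autosomal segments used were called at 2 copies and had at least 100 bins. Their log2 SD was 0.085 in 15376T (92 segments) and 0.098 in 14837T (90 segments). With the lines taken as independent, which was not tested, this gives 0.13 for a difference between them. Only segments between the thresholds for a loss and a gain enter, so the call itself limits this SD. It is a spread between regions of a line and not the error of a single region. Values set against it are therefore compared with a scale of size, not tested. Autosomal segments had a mean read depth, each bin counting equally, of 43.4 (15376T) and 47.5 (14837T). Segment log2 values are shared by all genes of a segment, so the genes that follow stand for regions between 2.35 and 143 Mb long. Gene positions are those of RefSeq on GRCm38.p6, the assembly that the labels call mm10.

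Among the reprogramming factors, Sox2 had the highest log2 in 15376T, while Sox2 and Pou5f1 were nearly level in 14837T. Sox2 lies on chromosome 3 from 34649995 to 34652461. Its segment had a log2 of 0.74 in 15376T, called at 4 copies, and of 0.43 in 14837T, called at 3. On a linear scale, with the reference taken at 2 copies, these are 3.33 and 2.69 copies. In 15376T the value lay at the 99.6th percentile of all genes, where 0.568% of genes (119) were called at 4 or more copies (0.0525% in 14837T). The segment of Sox2 itself names 65 genes, so its own region makes up much of this share. The log2 of 0.74 stands close to the threshold of 0.7, and below the log2 of 1 that 4 copies against 2 would give. In 14837T, Sox2 lay at the 93.4th percentile.

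The segments around Sox2 differ in extent. In 15376T the segment runs from 20262361 to 36164880 (757 bins, 65 genes) and ends 1.51 Mb beyond Sox2. Zfp267 is the last gene inside this border and Qrfpr, which encodes a neuropeptide receptor, the first outside, where the log2 falls to -0.025 over 217 bins. In 14837T a single segment from 3000501 to 49318671 (1720 bins, 166 genes) covers Sox2. Its nearest border is 14.7 Mb away, at a stretch that no segment covers. The log2 difference of 0.31 between the lines was larger than 1 SD. Averaged over 10 Mb centered on the gene, the log2 was 0.57 in 15376T and 0.43 in 14837T, and the difference was 0.14.

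Sox2 is the only one of the 10 genes with a depth of its own in both lines. A gene is listed in the gene tables where its segment reaches 0.40 in absolute log2, which here are Sox2 in both lines, Klf4 in 15376T and Pou5f1 in 14837T. The single exon of Sox2 is covered by 1 bin, with a depth of 79.4 in 15376T and 74.8 in 14837T. The depth of its segment was 74.4 and 60.6, so its own depth was higher by 0.093 and 0.30 on the log2 scale. Against the 20 nearest listed genes of the segment with at least 3 bins (median depths 92.0 and 83.4) it was lower, with log2 ratios of -0.21 and -0.16, so the direction depends on what Sox2 is compared with. Divided by the mean autosomal depth of each line, the own depth of Sox2 was higher in 15376T by 0.22 on the log2 scale. Over 708 genes listed in both lines with 1 bin, the own depth ratio deviated from the difference of the segments with an SD of 0.30, so the gene's own depth could not resolve a difference of this size. Mir1897, the nearest listed gene before Sox2, had a depth of 65.02 in 15376T and 67.5 in 14837T. Atp11b, a phospholipid-transporting ATPase gene and the nearest after it, had a depth of 113 and 99.0 over 30 bins.

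Pou5f1 went the other way from Sox2. It lies on chromosome 17 from 35506032 to 35510777, with a segment log2 of 0.074 in 15376T, called at 2 copies, and of 0.43 in 14837T, called at 3. The difference of -0.36 was larger than the SD of 0.13, and 13.4% of all genes were likewise at 2 copies in 15376T and gained in 14837T. In 14837T, 84.1% of the covered length of chromosome 17 was called gained, against 0.0% in 15376T. Pou5f1 lies there in a short segment from 34718593 to 37072334 (839 bins), raised above its neighbors by 0.098 and 0.11 on the log2 scale, which is about the SD. Its borders lie within Tnxb, 0.79 Mb before Pou5f1, and Gabbr1, 1.56 Mb after it, so parts of these genes are on either side. Atf6b and Olfr90 are the first genes outside. Of the 128 genes named in this segment, 24 have symbols beginning with H2-, the genes of the mouse major histocompatibility complex, a region rich in related gene copies. Averaged over 10 Mb, the log2 of Pou5f1 in 14837T was 0.35.

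The own depth of Pou5f1 in 14837T was 50.7 over 5 bins, under the 66.9 of its segment, a log2 ratio of -0.40. This is percentile 10.2 of 2734 listed genes with at least 5 bins, for which the middle 90% of ratios ran from -0.60 to 0.75. The nearest listed genes were H2-Q10, a class I gene, with a depth of 82.0, and Tcf19, with 59.9, over 3 bins each. RefSeq lists pseudogenes of Pou5f1 and of Nanog elsewhere in the genome, and how reads that match several of these copies were counted is not given in the sources used here.

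Klf4 was the only one of the 10 genes called lost in 15376T. Klf4 encodes a zinc finger factor of epithelial differentiation, and lies on chromosome 4 from 55527137 to 55532475. Its segment log2 was -0.59 in 15376T, called at 1 copy, and -0.091 in 14837T, called at 2. The linear values are 1.33 and 1.88 copies. The difference of -0.50 was the largest in size among the 10 genes, at the 92.3rd percentile of all genes, and 6.44% of all genes were lost in 15376T and at 2 copies in 14837T. In 15376T the segment runs over 143 Mb of the chromosome, from 3173523 to 146117266, with 11970 bins and 1161 genes. In 14837T, where 72.3% of the covered length was called lost, Klf4 falls in one of the parts that was not, from 50150154 to 63231877 (893 bins, 74 genes). The segment before it had a log2 of 0.20 and the one after it -0.39, so along the chromosome the log2 steps down at both borders, 5.38 Mb before and 7.70 Mb after Klf4.

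The own depth of Klf4 in 15376T was 21.7 over 5 bins, below the 29.8 of its segment by 0.46 on the log2 scale. The 20 nearest listed genes of the segment with at least 3 bins had depths from 24.5 to 58.9 (median 36.5), each above that of Klf4. Rad23b, a DNA repair gene and the nearest listed gene before Klf4, had a depth of 40.6 over 13 bins, and Actl7b, the nearest after it, 22.7 over 1 bin. The ratio of -0.46 lay at the 9.46th percentile of 4509 listed genes with at least 5 bins. Klf4 has no own depth in 14837T, so this value has nothing to be set against in the other line.

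Nanog was gained in 15376T alone. It lies on chromosome 6 from 122707489 to 122714633. Its segment log2 was 0.33 in 15376T, called at 3 copies, and -0.045 in 14837T, called at 2, a difference of 0.37. Of all genes, 1.87% (391 genes) were gained in the first line and at 2 copies in the second. The segments of Nanog have 196 genes in common between the lines, so its own region makes up much of this share. In 15376T the segment runs from 120208852 to 130380665 (1647 bins, 196 genes) and begins 2.50 Mb before Nanog, within B4galnt3, a glycosyltransferase gene, with Ninj2 the first gene outside and a log2 of 0.022 there. In 14837T the segment spans 127 Mb and ends at the same position. In both lines the next segment begins at 131167755, so the shared end stands at a stretch that no segment covers. Beyond it the log2 in 15376T was 0.29, also called gained. The depth ratio of the segments gave a larger difference, 0.56, but it sets the depth of 10.2 Mb in 15376T against that of the whole 127 Mb in 14837T.

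**Figure D2:**
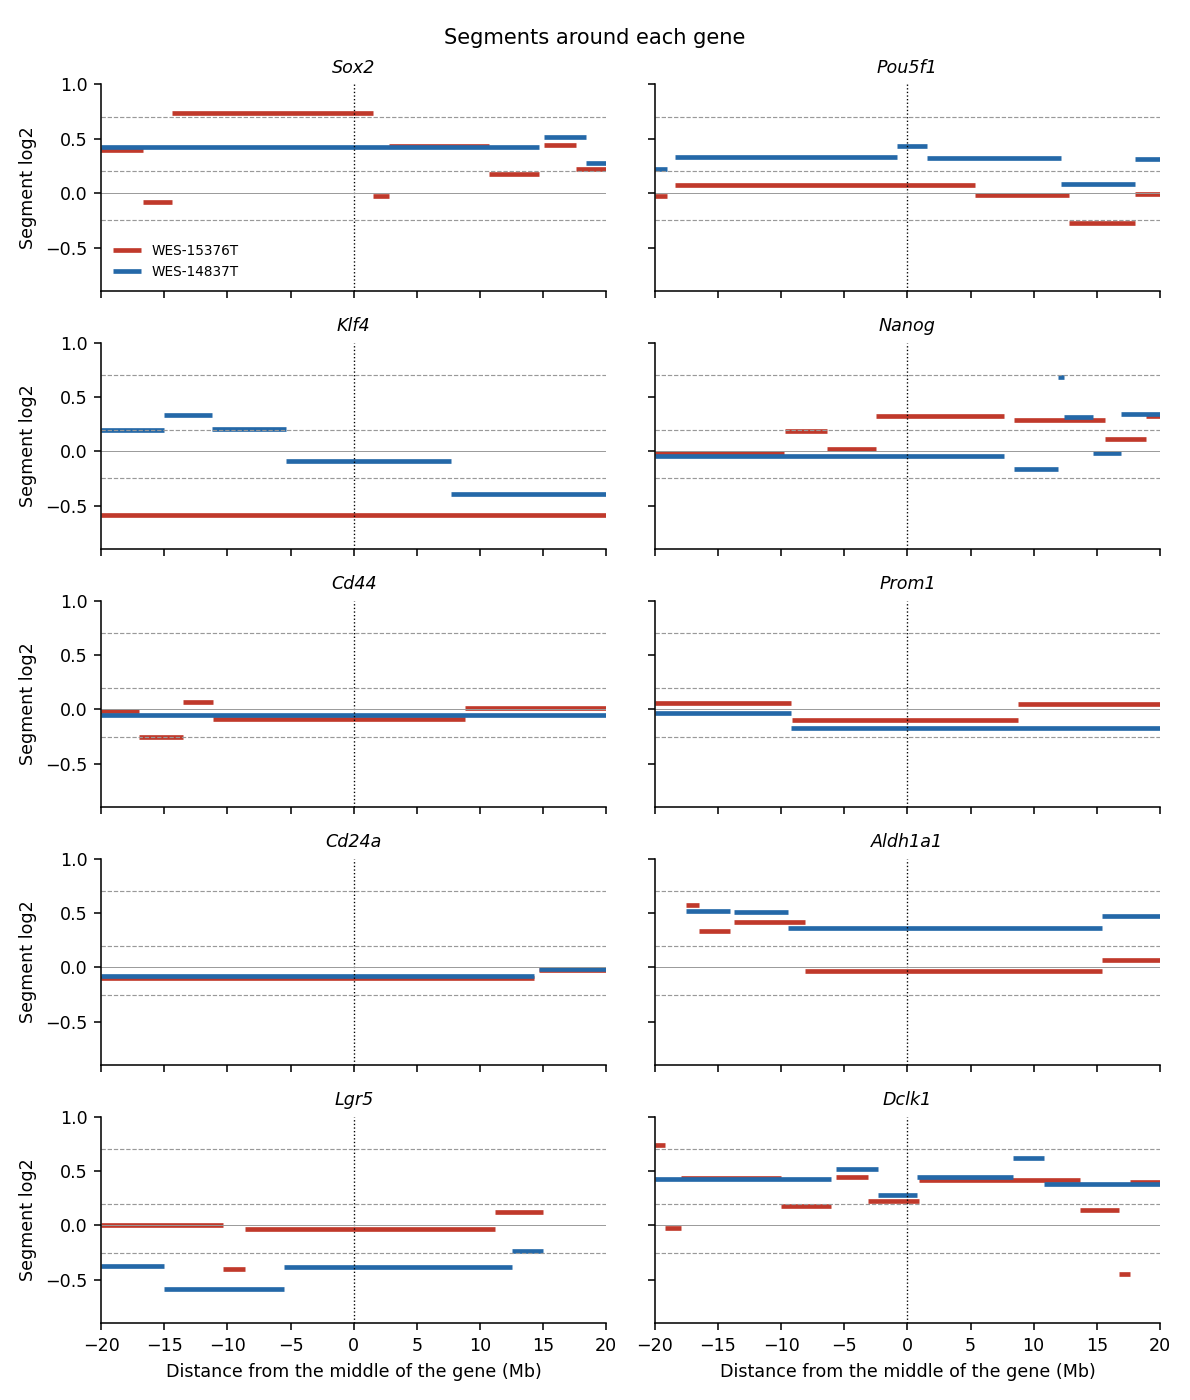
Segment log2 (vertical axes) against distance from the middle of each gene (horizontal axes, 20 Mb to either side), with 15376T in red and 14837T in blue; dashed lines are the call thresholds. A border lies 1.51 Mb after Sox2 and 2.50 Mb before Nanog in 15376T. The segments of Cd24a are the same in both lines and end at a stretch that no segment covers.

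The surface markers were called at 2 copies in both lines. Cd44, the hyaluronan receptor, lies on chromosome 2 from 102811141 to 102901669, with a log2 of -0.093 in 15376T and -0.049 in 14837T. Prom1, which encodes a pentaspan protein of membrane protrusions, lies on chromosome 5 from 43993621 to 44102047, with a log2 of -0.097 in 15376T and -0.17 in 14837T. Cd24a, which encodes a small mucin-like surface protein, lies on chromosome 10 from 43579169 to 43584265, with a log2 of -0.10 in 15376T and -0.080 in 14837T. All 6 values were negative but above the threshold of -0.25 for a loss. The autosomal median of log2 by length was itself negative, -0.040 in 15376T and -0.049 in 14837T. Recentred on it, the values ran from -0.12 (Prom1 in 14837T) to 0 (Cd44 in 14837T). The differences between the lines, -0.044, 0.073 and -0.021, were below the SD of 0.13. From the depths of the segments, these differences were -0.18, 0.16 and 0.043, so that for Cd24a the sign was not the same. For Cd44 (19.97 and 83.1 Mb) and Prom1 (17.9 and 29.3 Mb), they set segments of unlike length against each other. The log2 depth of the segments used for the SD of log2 had an SD of 0.17 in 15376T and 0.19 in 14837T.

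The segments of the surface markers were long. That of Cd24a ran from 3120192 to 57862307 with 3097 bins and 271 genes in both lines. The next segment begins at 58235487 in both, so this end too stands at a stretch that no segment covers. That of Cd44 held 122 genes over 19.97 Mb in 15376T and 1008 genes over 83.1 Mb in 14837T. That of Prom1 began within Htt, the huntingtin gene, in both lines (at 34870693 in 15376T and 34852708 in 14837T), and held 93 genes in 15376T and 110 in 14837T. None of these genes was given a segment of its own, and none has an own depth, since none is in a gene table. The smallest segments held 12 bins in 15376T and 13 in 14837T, so a change confined to fewer bins may not have been seen.

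Aldh1a1 and Lgr5 were called at 2 copies in 15376T and changed in 14837T in opposite directions. Aldh1a1 lies on chromosome 19 from 20492583 to 20643463, with a log2 of -0.030 in 15376T and 0.36 in 14837T, called at 3 copies. In 14837T, 94.2% of the covered length of chromosome 19 was called gained, and in 15376T 15.8%. The segments over Aldh1a1 end within 1 kb of each other, at 35959787 and 35960437, and begin at 12469472 in 15376T and 11096882 in 14837T. In 15376T the 5.65 Mb segment before that of Aldh1a1 was itself gained, with a log2 of 0.42, so the difference of -0.39 at Aldh1a1 is not one of the whole chromosome. Aldh1a7, a close relative of Aldh1a1, lies next to it and has the same segments.

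Lgr5 lies on chromosome 10 from 115450314 to 115587780, with a log2 of -0.035 in 15376T and -0.38 in 14837T, called at 1 copy (1.53 on the linear scale). The difference of 0.35 was larger than the SD of 0.13, and 6.02% of all genes were at 2 copies in 15376T and lost in 14837T. Lgr5 shares chromosome 10 with Cd24a, 71.9 Mb away. In 14837T, 4 of the 5 segments that lie wholly between the genes were called lost, with a lowest log2 of -0.58, and 41.2% of the covered length of the chromosome was lost. In 15376T, 1 of 6 segments between them was lost, and 1.38% of the length. The genes thus had nearly the same log2 in 15376T, -0.10 at Cd24a and -0.035 at Lgr5, and differed by more than the SD in 14837T, -0.080 against -0.38.

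Dclk1 shares chromosome 3 with Sox2, 20.6 Mb away, and was called at 3 copies in both lines. It lies from 55242303 to 55539068, with a log2 of 0.22 in 15376T and 0.28 in 14837T, and the difference of -0.055 was below the SD of 0.13. Its log2 stands just above the threshold of 0.2, and from an absolute log2 of 0.3 it was called in neither line. Dclk1 is in a short segment in each line, 4.06 Mb with 325 bins in 15376T and 3.14 Mb with 296 bins in 14837T, which lies lower than the segments on either side. The steps up to the neighbors were 0.22 and 0.19 in 15376T and 0.24 and 0.17 in 14837T, each larger than 1 SD. The borders after Dclk1 stand 0.79 and 0.64 Mb from it. In both lines Mab21l1, a gene of eye development, is the last gene to begin inside, though a gene that begins earlier may reach nearer to the border. Tm4sf1, a tetraspanin-like membrane protein gene, is the first outside. Before Dclk1 the last gene inside is Foxo1, a forkhead transcription factor, in 15376T (Maml3 outside) and Lhfp in 14837T (Cog6 outside). Over 10 Mb around the gene, the log2 was 0.34 in 15376T and 0.41 in 14837T. Between Sox2 and Dclk1 lie 4 whole segments in 15376T, 2 gained and 2 at 2 copies, with a log2 from -0.025 to 0.45, and 1 gained segment (0.52) in 14837T. The genes thus stand in gained stretches that are apart in 15376T. In 14837T the gain is continuous but for a stretch that no segment covers, between 49318671 and 49744580. In 15376T the segment from 45379199 to 49318671, called at 2 copies, had a log2 of 0.18 over 38 bins, just below the threshold of 0.2. The chromosome was gained over 82.0% of its covered length in 15376T and 99.0% in 14837T.

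**Figure D3:**
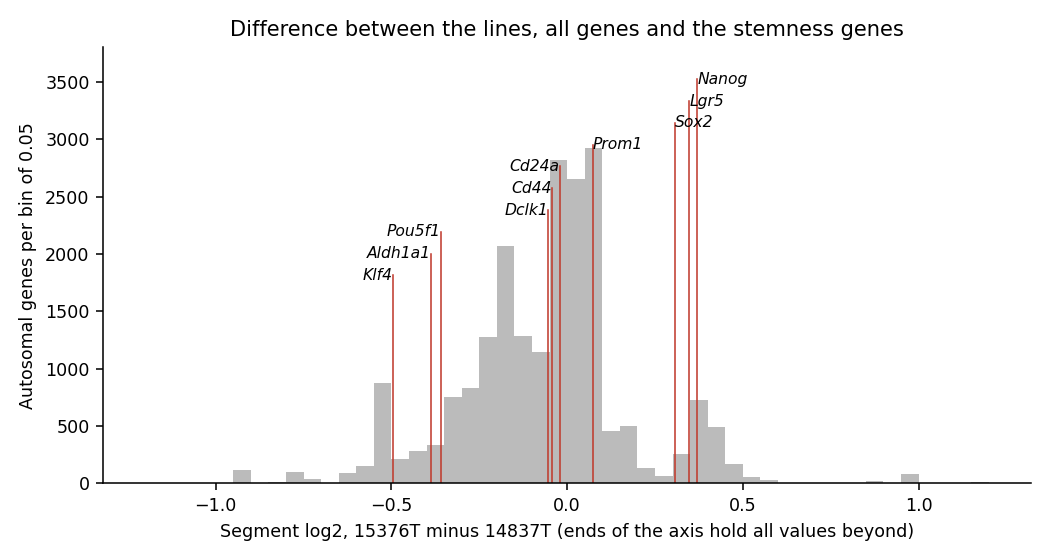
Difference in segment log2 between the lines (horizontal axis, 15376T minus 14837T) over 20947 autosomal genes (gray bars, genes per bin of 0.05) with the 10 stemness genes as red lines, whose heights only keep the names apart. Sox2, Lgr5 and Nanog stand on the right, Klf4, Aldh1a1 and Pou5f1 on the left, and the other 4 near 0.

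Sox2, Lgr5 and Nanog were higher in 15376T by 0.31 to 0.37, Pou5f1, Aldh1a1 and Klf4 lower by 0.36 to 0.50, and Cd24a, Cd44, Dclk1 and Prom1 differed by less than the SD of 0.13. A difference of at least 0.3 in size was seen in 6 of the 10 genes and in 22.9% of all genes. This count depends on the scale, since Sox2 lies at the limit. It was 5 of 10 (23% of all genes) with the log2 recentred on the autosomal median, and 3 of 10 (19.3% of 20881 genes with a RefSeq position) with means over 10 Mb, where Klf4, Aldh1a1 and Lgr5 were left. The median size was 0.33 over the 10 genes and 0.12 over all genes. The 10 genes were not drawn at random, were chosen with earlier results of these data known, and some share a chromosome. The counts are therefore a description of them. The median log2 of the 10 was -0.033 in 15376T and -0.047 in 14837T, against -0.023 and -0.045 over all genes.

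The B-allele fraction (BAF) summarizes, over the variant sites of a segment, which part of the reads carries the non-reference allele. Its median over autosomal length was 0.077 (15376T) and 0.061 (14837T). The BAF over Nanog was 0.74 in 15376T and 0.40 in 14837T, the 95.3rd and the 95.6th percentile of autosomal segments. On chromosome 6 of 15376T, the run of 4 segments from 87158067 to 130380665 had BAF values of 0.78, 1, 0.82 and 0.74, and the next segment 0.038. The first 3 were called at 2 copies and the last, with Nanog, at 3, so the BAF was high over segments of either call. At Cd44 the BAF was 0.31 in 15376T and 0.21 in 14837T, the 88.9th and the 89.1st percentile.

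The other 8 genes had BAF values from 0.023 (Cd24a in 15376T) to 0.11 (Lgr5 in 15376T). Among them are genes called at 1, 2, 3 and 4 copies, and the BAF of gained Sox2 (0.036 and 0.030) was lower than that of lost Klf4 in 15376T (0.084) or lost Lgr5 in 14837T (0.097). The tables split each copy number into a major and a minor allele, which follows from the BAF. Of the 20 values of the 10 genes, 17 had a minor copy of 0 and 3 a minor copy of 1, Nanog in both lines and Cd44 in 15376T. A minor copy of 0 was also the call for 90.9% of all genes with an allele-specific call in 15376T and 93.3% in 14837T, so the 17 are close to the background and are not a result about these genes. Klf4 in 14837T, called at 2 copies with a BAF of 0.074, has a major copy of 2 and a minor copy of 0. Of the autosomal segments called at 2 copies with at least 100 bins, 65.2% in 15376T and 72.2% in 14837T had a BAF under 0.1. The call at Klf4 is thus a common one and is not read here as the loss of an allele. How many variants stand behind a BAF is not given in these tables, and the values therefore carry no interval.

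**Figure D4:**
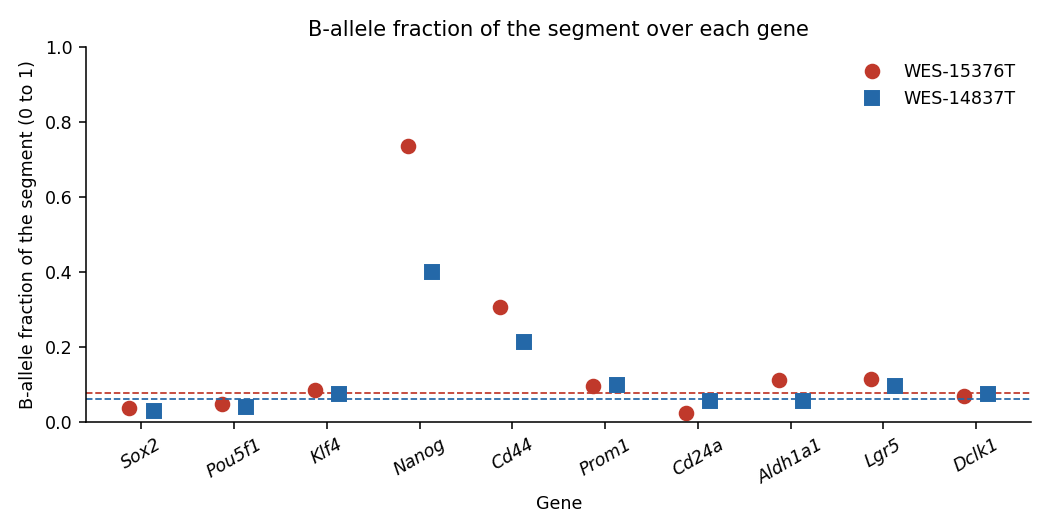
B-allele fraction (vertical axis, fraction from 0 to 1) of the segment over each of the 10 genes, with 15376T as circles and 14837T as squares, and the autosomal medians, 0.077 and 0.061, as dashed lines. Nanog and Cd44 stand above the other genes in both lines.

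Other genes of pluripotency, stem-like tumor cells and epithelial stem cells were taken from lists of 87 genes, of which 85 were autosomal and in a single segment in each line (Sox1 and Sox3 were not). Of these 85, 5 were gained and 22 lost in 15376T (5.88% and 25.9%), and 10 were gained and 21 lost in 14837T (11.8% and 24.7%). Each share was lower than that of all genes given above. A different call in the lines was found for 17 of 85 (29.3% of all genes). The median log2 was -0.029 in 15376T and -0.045 in 14837T.

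Of 30 pluripotency genes, 3 were gained and 12 lost in 15376T, 3 were gained and 10 lost in 14837T, and 9 were lost in both. Unlike for the 85 genes together, the shares lost, 40% in 15376T and 33.3% in 14837T, were higher than the 30.1% and 28.8% of all genes, and 22.4% of all genes were lost in both. Some of the 30 share a segment, such as those on chromosome 4 (-0.59 in 15376T and -0.39 in 14837T). The counts thus stand for fewer regions than genes, and the difference from all genes was not tested. Dppa2 and Dppa4, neighboring genes of early embryonic chromatin proteins on chromosome 16, had the lowest mean log2 among genes lost in both lines (-0.65 in 15376T and -0.49 in 14837T), which they share with Alcam, an adhesion molecule gene of the list of tumor cell markers. Of 22 markers of stem-like tumor cells, 2 were gained and 3 lost in 15376T, and 4 were gained and 3 lost in 14837T. Of 20 genes of the Lgr5 family, its ligands and epithelial stem cells, 0 were gained and 4 lost in 15376T, and 1 was gained and 5 lost in 14837T. Of 13 relatives of the Sox, Pou, Klf, Dclk and prominin genes, 0 were gained and 3 lost in 15376T, and 2 were gained and 3 lost in 14837T. Gained in both lines were Tet2, a 5-methylcytosine dioxygenase gene (0.49 and 0.50), Myc, the remaining reprogramming factor (0.47 and 0.28), and Ly6a, which encodes the surface marker Sca-1 (0.49 and 0.31). Mycn, a paralog of Myc, was lost in 15376T (-0.42) and gained in 14837T, where its log2 of 0.20 stood at the threshold.

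Of the genes with different calls, Tdgf1, a Nodal co-receptor (-0.59 and -0.075), Dclk3 (the same values), Dppa5a (-0.53 and -0.029) and Aldh1a2, a retinaldehyde dehydrogenase like Aldh1a1 (the same values as Dppa5a), were lost in 15376T and at 2 copies in 14837T, and all 4 lie on chromosome 9. At 2 copies in 15376T and lost in 14837T were Tert, the telomerase catalytic subunit (-0.091 and -0.53), Sox4 (-0.036 and -0.47), Dnmt3l (0.010 and -0.38) and Tspan8 (-0.035 and -0.38). At 2 copies in 15376T and gained in 14837T were Nes, the intermediate filament nestin (0.097 and 0.62), Dclk2, a paralog of Dclk1 (-0.098 and 0.62), Epcam, an epithelial adhesion molecule (0.0056 and 0.28), Smoc2 (-0.023 and 0.23), Klf10 (-0.11 and 0.23) and Aldh1a7 (-0.030 and 0.36).

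Some of these genes stand in the segments of the 10 and cannot differ from them. Gdf3, a TGF-beta family ligand, and Cd9, a tetraspanin, were gained in 15376T and at 2 copies in 14837T (0.33 and -0.045) because their log2 is that of the segments of Nanog. Tspan8 shares the segments of Lgr5, Aldh1a7 those of Aldh1a1, Lgr4, the broader R-spondin receptor, those of Cd44, and Lin28b and Rspo3, an R-spondin, those of Cd24a.

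**Figure D5:**
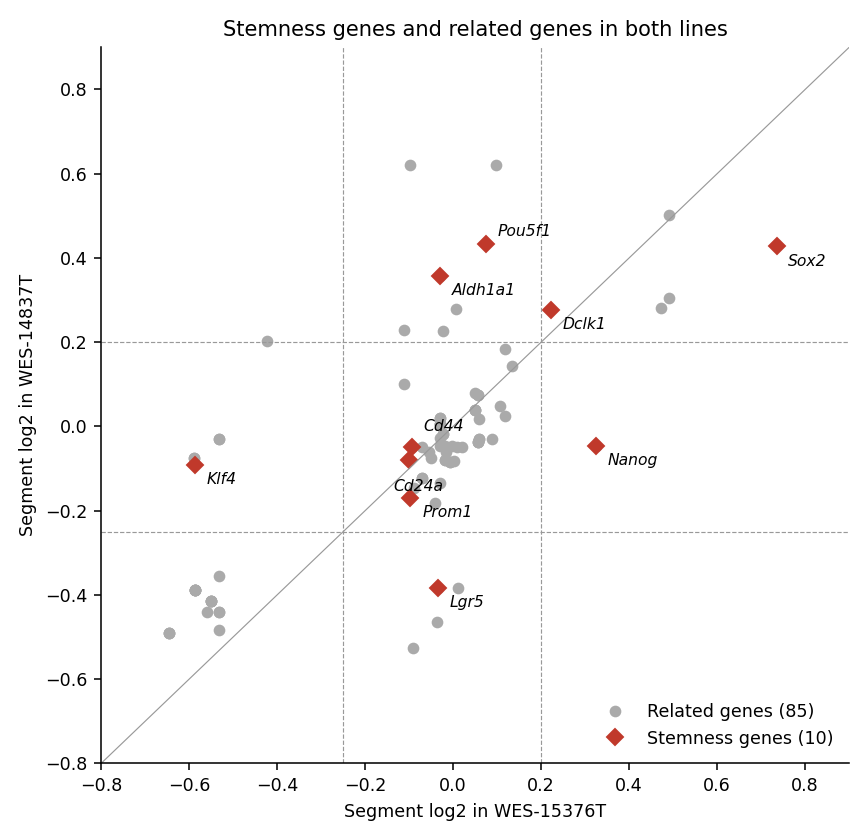
Segment log2 in 15376T (horizontal axis) and 14837T (vertical axis) for the 10 stemness genes (diamonds) and 85 related genes (gray circles, several of which coincide), with the thresholds of -0.25 and 0.2 as dashed lines. Sox2 and Dclk1 stand in the upper right field, no stemness gene in the lower left one, and 17 related genes were lost in both lines.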

How the data were processed

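WES data of the lines 15376T and 14837T, 1 library each, were used. A further engineered allele of the lines is not reported here. Per the labels, the build was mm10. The capture kit is an Agilent human exome design in the labels and a NimbleGen one in the methods. The aligner and the copy-number reference are not given in the sources used here. The authors deposited, for segments and genes, log2 ratios of coverage, read depth as a coverage signal without normalization, BAF as a fraction, counts of bins, and copy-number calls and weights as scores. All calls could be derived from the log2 by CNVkit's default thresholds. The log2 of every listed gene equalled that of its segment.

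Genes were looked up by name in the segments, and counts, percentiles and differences were computed with Python 3.11.15, numpy 2.4.6 and pandas 2.3.3, and plotted with matplotlib 3.10.9. The gene lookup and the calls were tested on simulated log2 values that lie away from the thresholds, and the weighted median and percentile on fixed values. Borders, windows and own depths were not tested in this way. No replicates exist, so no p-value was computed. The members and lists were chosen with earlier results of these data known. Named are all 10 genes, related genes with different calls, up to 3 gained and 3 lost in both lines with the largest mean log2, genes at borders within 5 Mb, and the nearest listed genes; genes sharing the segments of the 10 were added after their values were seen. Alternatives were calls at 0.3 or 0.5, recentred log2, segments of at least 100 bins, gene-table log2, depth ratios, neighbors' depth, and, added after seeing the data, means over 10 Mb and the count of differences of at least 0.3 under each scale.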

Additional observations from a re-analysis of the deposited data

How the results depend on the processing

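Calls from an absolute log2 of 0.5 moved the counts most. The members gained were then 1 in 15376T and 0 in 14837T, those lost in 14837T 0, those at 2 copies in 14837T 10, and those with a different call 2. Of the related genes, 0 were then gained in 15376T and 3 in 14837T, and 1 was lost in 14837T. From 0.3, 5 related genes were gained in 14837T. The construction of these alternatives shows the cause, since each removes calls nearer to 0. Averaged over 10 Mb, 3 of the 10 genes differed by at least 0.3 between the lines. The other 35 alternative counts stayed within 1.5 times their value. Among 95 alternative values of log2 and of its difference for single genes, 89 moved by less than the SD of segments and 0 reversed a called direction. The 6 that moved more were the log2 of Sox2 in 15376T and of Dclk1 in both lines and the difference of Sox2, each averaged over 10 Mb, and the differences of Nanog and Cd44 from segment depths. Many of the 89 could not have moved so far. Recentring subtracts 1 value from every gene of a line, between -0.018 and -0.049, which is smaller in size than the SD. A mean over 10 Mb equals the segment log2 where the segment fills the window. The 89 are therefore not a measure of robustness. Set against the 20 nearest listed genes instead of the segment, the log2 ratio of own depth turned from 0.093 to -0.21 for Sox2 in 15376T and from 0.30 to -0.16 in 14837T, and went from -0.46 to -0.75 for Klf4 and from -0.40 to -0.38 for Pou5f1. These moves are below the SD of that ratio among listed genes, 0.42 to 0.59. The log2 in the gene table could not move a value, since it is that of the segment, and the filter of 100 bins removed none of the 10 genes. The depth of a segment is a mean over its bins, so the precision of a single gene is unknown for the 7 genes that no gene table lists. No paired analysis was possible because a line is a single WES library here, and no test was run.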
